A study of Mus musculus with 6 samples.

Results

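The 45 genes described here drive DNA replication and cell division. They were taken by name from the count table and not by a cut on their values, though earlier results of these data were known. All 45 were found among its 51361 genes. By the phase in which each is known to act or peak, 18 were grouped as S phase genes and 27 as G2/M genes. The libraries came from Tregs, or regulatory T cells, which hold immune responses in check. They were sorted by flow cytometry on CD4, CD25 and Foxp3. All mice were 9-week-old males on the C57BL/6N background and carried Tg(Foxp3-DTR/EGFP)23.2Spar, a transgene in which the Foxp3 promoter drives the diphtheria toxin receptor and green fluorescent protein, so the controls carry it too. One group was sorted from the brain and another from the blood at 14 days after a 60 min transient middle cerebral artery occlusion (tMCAO), a stroke model that blocks and then reopens an artery of the brain. The remaining group was sorted from the blood of sham-operated mice, for which the interval after surgery is not given separately. Each group held 2 libraries of 500 to 1000 cells. The labels do not say that they came from separate mice, so p-values measure only how far these libraries spread, and that spread may be technical.

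A cell that divides passes from G1, where cyclin D and E kinases release E2F transcription factors from the Rb family, into S phase, where the licensed origins open and DNA is copied. It then passes through G2 into mitosis, where cyclin B with Cdk1 starts chromosome condensation and the anaphase-promoting complex ends it by marking cyclins and securin for destruction. S phase genes are known targets of E2F. Many G2/M genes are held off in resting cells by the DREAM complex, though it is not limited to them. In G2/M promoters it binds a CHR element close to the start site and often acts with CCAAT boxes bound by NF-Y. Most circulating Tregs rest between divisions, although as a population Tregs divide more often than other CD4 T cells.

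The promoters of these genes show that division by phase in their sequence. RefSeq gave promoter windows on GRCm38.p6, from 250 bases before to 50 after an annotated start, for 37 of the 45 genes (41 windows). Letters were searched on both strands, each match counted even where it overlapped another. The E2F letters searched were TTTCCCGC, TTTCGCGC, TTTGCCGC and TTTGGCGC, the CHR letters were TTTGAA, and the box letters were CCAAT. Of 17 windows of S phase genes, 47.1% held E2F letters, against 4.17% of 24 windows of G2/M genes and 2.26% of all 32851 windows of the same length. CHR letters stood in 79.2% of the G2/M windows, in 5.88% of the S phase windows and in 17.9% of all windows. CCAAT stood in 91.7% of the G2/M windows, 64.7% of the S phase windows and 37.4% of all windows. Every one of the 19 G2/M windows with CHR letters also held CCAAT, a combination found in 6.95% of all windows. A match describes the letters of a window and does not show that a factor binds there. The windows of Mcm4, Gins2, Ccne2, Ccna2, Aurkb, Kif20a, Tpx2 and Stmn1 were not used here.

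The 250 bases before the start are printed 5′ to 3′ for 6 genes that carry the results below, with matched letters in capitals. Mcm6, a helicase subunit, stands for the S phase genes (chr1:128359706-128359955, minus strand, 3 E2F and 2 CCAAT matches). Cdk1, the mitotic kinase, was the 1 G2/M gene with E2F letters (chr10:69352913-69353162, minus strand, 1 E2F, 2 CHR and 3 CCAAT matches). Mki67 (chr7:135716380-135716629, minus strand, 2 CHR and 3 CCAAT) and Top2a (chr11:99024190-99024439, minus strand, 2 CHR and 6 CCAAT) are shown as the most used marks of dividing cells. Ube2c (chr2:164769679-164769928, plus strand, 1 CHR and 6 CCAAT) and Nusap1 (chr2:119618048-119618297, plus strand, no match) are shown because their levels across libraries departed from those of the other genes.
Mcm6: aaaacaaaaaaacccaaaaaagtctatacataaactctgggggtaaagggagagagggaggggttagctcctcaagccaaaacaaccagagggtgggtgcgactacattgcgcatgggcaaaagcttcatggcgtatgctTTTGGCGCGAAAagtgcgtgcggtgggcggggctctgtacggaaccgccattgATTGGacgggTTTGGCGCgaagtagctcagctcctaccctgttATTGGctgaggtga
Cdk1: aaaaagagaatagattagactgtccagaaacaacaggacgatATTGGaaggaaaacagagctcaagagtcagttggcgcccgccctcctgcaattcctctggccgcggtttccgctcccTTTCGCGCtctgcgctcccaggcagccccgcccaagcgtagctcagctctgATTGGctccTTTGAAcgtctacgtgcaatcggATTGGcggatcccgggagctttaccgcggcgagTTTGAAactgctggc
Mki67: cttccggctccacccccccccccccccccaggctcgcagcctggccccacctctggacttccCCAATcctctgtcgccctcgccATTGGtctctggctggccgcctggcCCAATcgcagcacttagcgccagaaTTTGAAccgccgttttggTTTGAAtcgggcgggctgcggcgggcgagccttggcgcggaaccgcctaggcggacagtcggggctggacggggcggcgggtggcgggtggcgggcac
Top2a: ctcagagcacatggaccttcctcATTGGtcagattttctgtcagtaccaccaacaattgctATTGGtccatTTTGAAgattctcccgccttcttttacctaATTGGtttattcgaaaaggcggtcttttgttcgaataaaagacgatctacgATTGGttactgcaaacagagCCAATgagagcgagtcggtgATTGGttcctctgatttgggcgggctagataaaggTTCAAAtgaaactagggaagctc
Ube2c: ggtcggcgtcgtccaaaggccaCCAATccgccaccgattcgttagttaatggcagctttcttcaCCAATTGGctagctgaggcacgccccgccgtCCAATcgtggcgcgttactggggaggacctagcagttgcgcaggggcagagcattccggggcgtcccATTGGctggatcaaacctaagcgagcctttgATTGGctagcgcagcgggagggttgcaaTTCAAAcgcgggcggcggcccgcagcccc
Nusap1: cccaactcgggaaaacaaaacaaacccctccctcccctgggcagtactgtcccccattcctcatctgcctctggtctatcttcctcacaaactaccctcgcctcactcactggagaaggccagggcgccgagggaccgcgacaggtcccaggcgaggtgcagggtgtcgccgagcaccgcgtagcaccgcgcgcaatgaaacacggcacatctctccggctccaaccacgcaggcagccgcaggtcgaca
The first 5 carry capitals and Nusap1 carries none, although both Ube2c and Nusap1 had their highest levels in the sham libraries, as given below.

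The libraries held 14348179 to 24460894 counts. Cd3e, part of the signalling unit of the T cell receptor, had levels of 10.7 and 87.1 CPM in brain, 17.2 and 119.7 CPM in blood after tMCAO and 441 and 418 CPM after sham operation (CPM, the counts scaled to a common total by the TMM-adjusted library size). Foxp3, which defines Tregs, stood at 0.726 and 19.6 CPM in brain, 0.538 and 5.18 CPM in blood after tMCAO and 50.1 and 60.7 CPM after sham operation, so library 1 of both tMCAO groups was near 0 for the gene on which the cells were sorted. Of all counts, the 15 T cell identity genes made up 0.0274% and 0.143% in brain, 0.0633% and 0.420% in blood after tMCAO and 0.814% and 0.781% after sham operation. The 12 monocyte and macrophage markers took 13.2% and 5.99%, 2.96% and 1.76%, and 0.755% and 0.708% in the same order, with no marker at 0 in any library. The 12 microglia markers took 0.874% and 0.935% in brain and 0.0202% to 0.0280% in the blood libraries. The 9 red cell genes took 15.1% and 16.4% in sham blood, 0.107% and 3.80% in tMCAO blood and at most 0.000141% in brain, where 5 and 8 of the 9 were at 0. The 9 neutrophil and granulocyte precursor genes took 0.0267% and 0.776% in tMCAO blood, 0.142% and 0.00957% in brain, and at most 0.00007% in sham blood, where 7 and 8 of the 9 were at 0. Monocytes, microglia, red cell precursors and granulocyte precursors can also divide, and their part in the results below was not tested.

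The 45 genes together took a small share of each library, and that share differed widely between the libraries of a group. They took 0.0491% (95% Wilson interval 0.0482 to 0.0501) and 0.172% (0.170 to 0.173) of counts in tMCAO brain. In tMCAO blood the shares were 0.121% (0.120 to 0.123) and 0.352% (0.349 to 0.354), and in sham blood 0.225% (0.222 to 0.227) and 0.147% (0.145 to 0.149). The intervals cover counting error only, since amplified reads without molecular identifiers are not independent molecules. Library 2 was the higher of the pair in both tMCAO groups and the lower of the pair in sham blood, and the 3 groups overlapped. In bulk libraries, fewer dividing cells and less of these RNAs per cell cannot be told apart. The T cell identity share was also higher in library 2 of both tMCAO groups and was close between the sham libraries, and its part in the result was not tested. Per count of the T cell identity genes, the 45 genes gave 1.79 and 1.21 counts in brain, 1.92 and 0.837 in blood after tMCAO and 0.276 and 0.189 after sham operation, so on that scale library 1 was the higher of each pair.

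**Figure D1:**
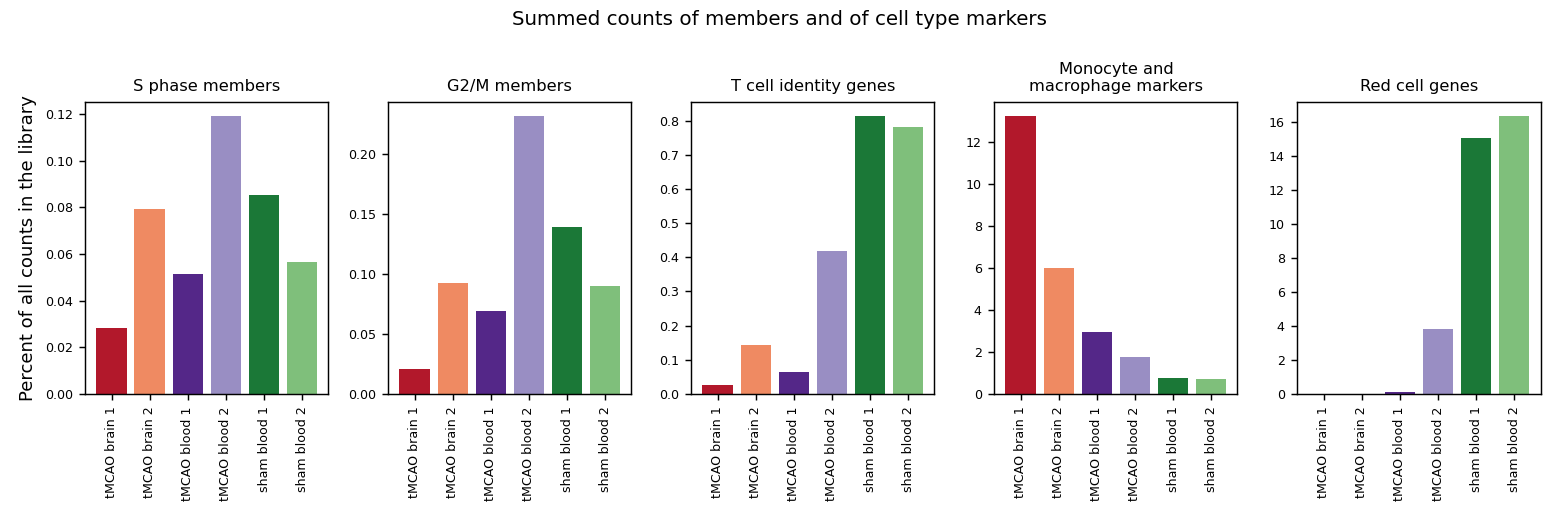
Percent of all counts in each of the 6 libraries taken by the 18 S phase genes, the 27 G2/M genes and 3 sets of cell type genes, each panel on its own axis from 0. The G2/M share runs from 0.0210% in tMCAO brain 1 to 0.232% in tMCAO blood 2, while the T cell share is highest in the sham libraries and the monocyte and macrophage share is highest in brain.

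S phase and G2/M genes did not hold a fixed ratio. Summed over the S phase genes, levels were 338 and 793 CPM in brain, 536 and 990 CPM in blood after tMCAO and 833 and 573 CPM after sham operation. Summed over the G2/M genes, the order was 252 and 924, 724 and 1929, and 1360 and 914 CPM. The G2/M sum was 0.745 and 1.16 times the S phase sum in brain, 1.35 and 1.95 times in blood after tMCAO and 1.63 and 1.60 times after sham operation. As sums, the brain ratios lay below the 4 blood ratios, with tMCAO brain 1 the only library in which S phase genes summed higher. These are sums over genes of different length and are given as a description. Medians over the genes did not separate brain from blood. For tMCAO brain 2 the G2/M median was 24.2 CPM where the S phase median was 35.3 CPM. Relative to S phase, G2/M was lower than this in tMCAO blood 1 (16.1 to 26.2) and sham blood 2 (11.3 to 23.8). It was higher in tMCAO blood 2 (36.0 to 45.7) and sham blood 1 (27.0 to 34.4), and lowest in tMCAO brain 1 (3.93 to 10.1). Within the sums, the gene with the most counts was Pcna in tMCAO brain 1 (108 CPM), Ube2c in sham blood 2 (225 CPM) and Hmgb2 in the other 4 libraries.

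The clearest pattern lay between the libraries of one group. In tMCAO brain, 44 of the 45 genes were higher in library 2 than in library 1, Cenpf being the exception, with a median log2 ratio of 1.83 (CPM + 0.5). In tMCAO blood all 45 were higher in library 2, with a median of 1.16. In sham blood 42 of the 45 were lower in library 2, with a median of -0.85, and the exceptions were Mcm4, Ube2c and Nusap1. Over all 16657 genes tested the corresponding medians were 0.00, -0.02 and 0.00, and 49.8%, 47.2% and 47.6% of them were higher in library 2. The single-gene ratios ran from -0.41 to 5.66 in brain, 0.11 to 2.21 in tMCAO blood and -3.71 to 0.09 in sham blood. G2/M genes had medians of 2.14, 1.42 and -0.92, and S phase genes of 1.41, 0.93 and -0.52, so the G2/M median was the larger in size in each group. With raw library totals in place of the TMM-adjusted sizes, 44, 45 and 2 of the 45 genes were higher in library 2. On that scale 63.8%, 61.1% and 43.8% of all genes tested were higher in library 2. Some marker lists of other cells were also higher in library 2 of both tMCAO groups. The 6 B cell markers had median log2 ratios of 4.71 in brain and 1.68 in tMCAO blood, with 6 of 6 higher in each. The 10 CD8 T and NK cell markers had medians of 4.02 (10 of 10 higher) and 1.09 (8 of 10), and the 6 dendritic cell markers of 1.95 (6 of 6) and 0.64 (5 of 6). The 15 T cell identity genes had medians of 2.45 (14 of 15) and 2.44 (15 of 15), whereas the 12 monocyte and macrophage markers had medians of -1.28 and -1.21. In tMCAO blood the largest medians were those of the 9 red cell genes (4.64, 8 of 9 higher) and the 9 neutrophil and granulocyte precursor genes (4.41, 9 of 9). In brain the medians of these lists were 0 and -1.82, with 0 genes higher in library 2. In sham blood, where most of the 45 genes were lower in library 2, the B cell and the CD8 T and NK cell medians were 1.62 and 0.74. In counts, B cell markers took 0.0143% to 0.145% of a library, CD8 T and NK cell markers 0.00980% to 0.130%, and dendritic cell markers 0.00116% to 0.109%. The part of these cells in the result was not tested.

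**Figure D2:**
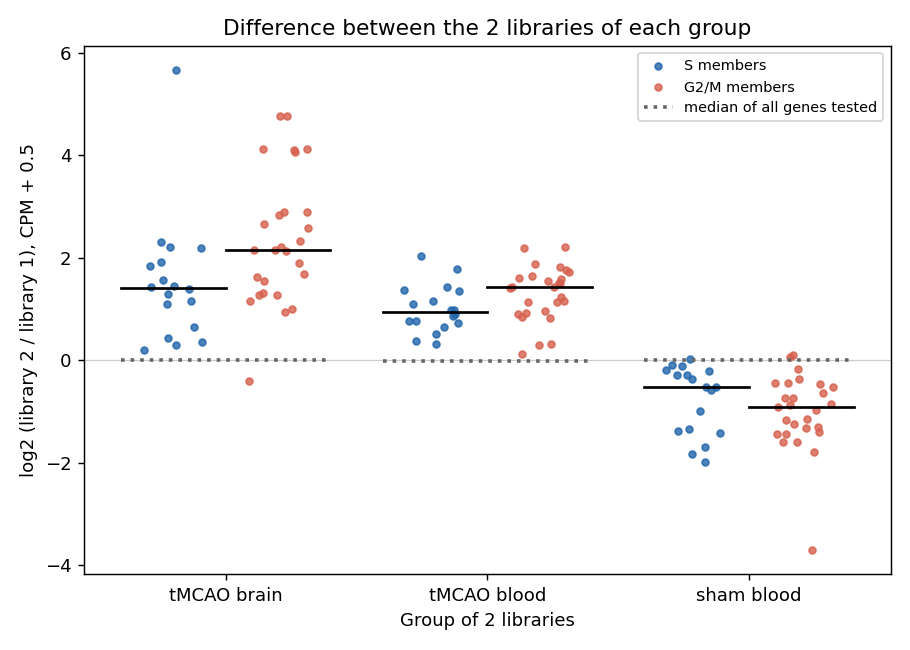
Log2 ratio of library 2 to library 1 (CPM + 0.5) for each of the 45 genes in the 3 groups, with S phase genes in blue, G2/M genes in red, a black bar at each median and a dotted line at the median of all genes tested. Points lie above 0 in both tMCAO groups apart from Cenpf in brain, and below or close to 0 in sham blood.

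For most of the genes tMCAO brain 1 was the lowest library and tMCAO blood 2 the highest. The lowest level fell in tMCAO brain 1 for 33 of the 45 genes, in sham blood 2 for 9 and in tMCAO blood 1 for 3. The highest fell in tMCAO blood 2 for 31, in tMCAO brain 2 for 6, in sham blood 1 for 5 and in sham blood 2 for 3. The ratio of the highest to the lowest library had a median of 7.35 over the 45 genes, from 1.82 for Pcna to 207 for Nusap1. By group mean, 21 genes were ordered tMCAO blood over sham blood over brain, and 12 were ordered tMCAO blood over brain over sham blood. The order of means was sham blood over tMCAO blood over brain for 7 and sham blood over brain over tMCAO blood for 3. For the 2 left, brain had the highest mean. No neighbours in these orders differed past the threshold of the test used below.

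**Figure D3:**
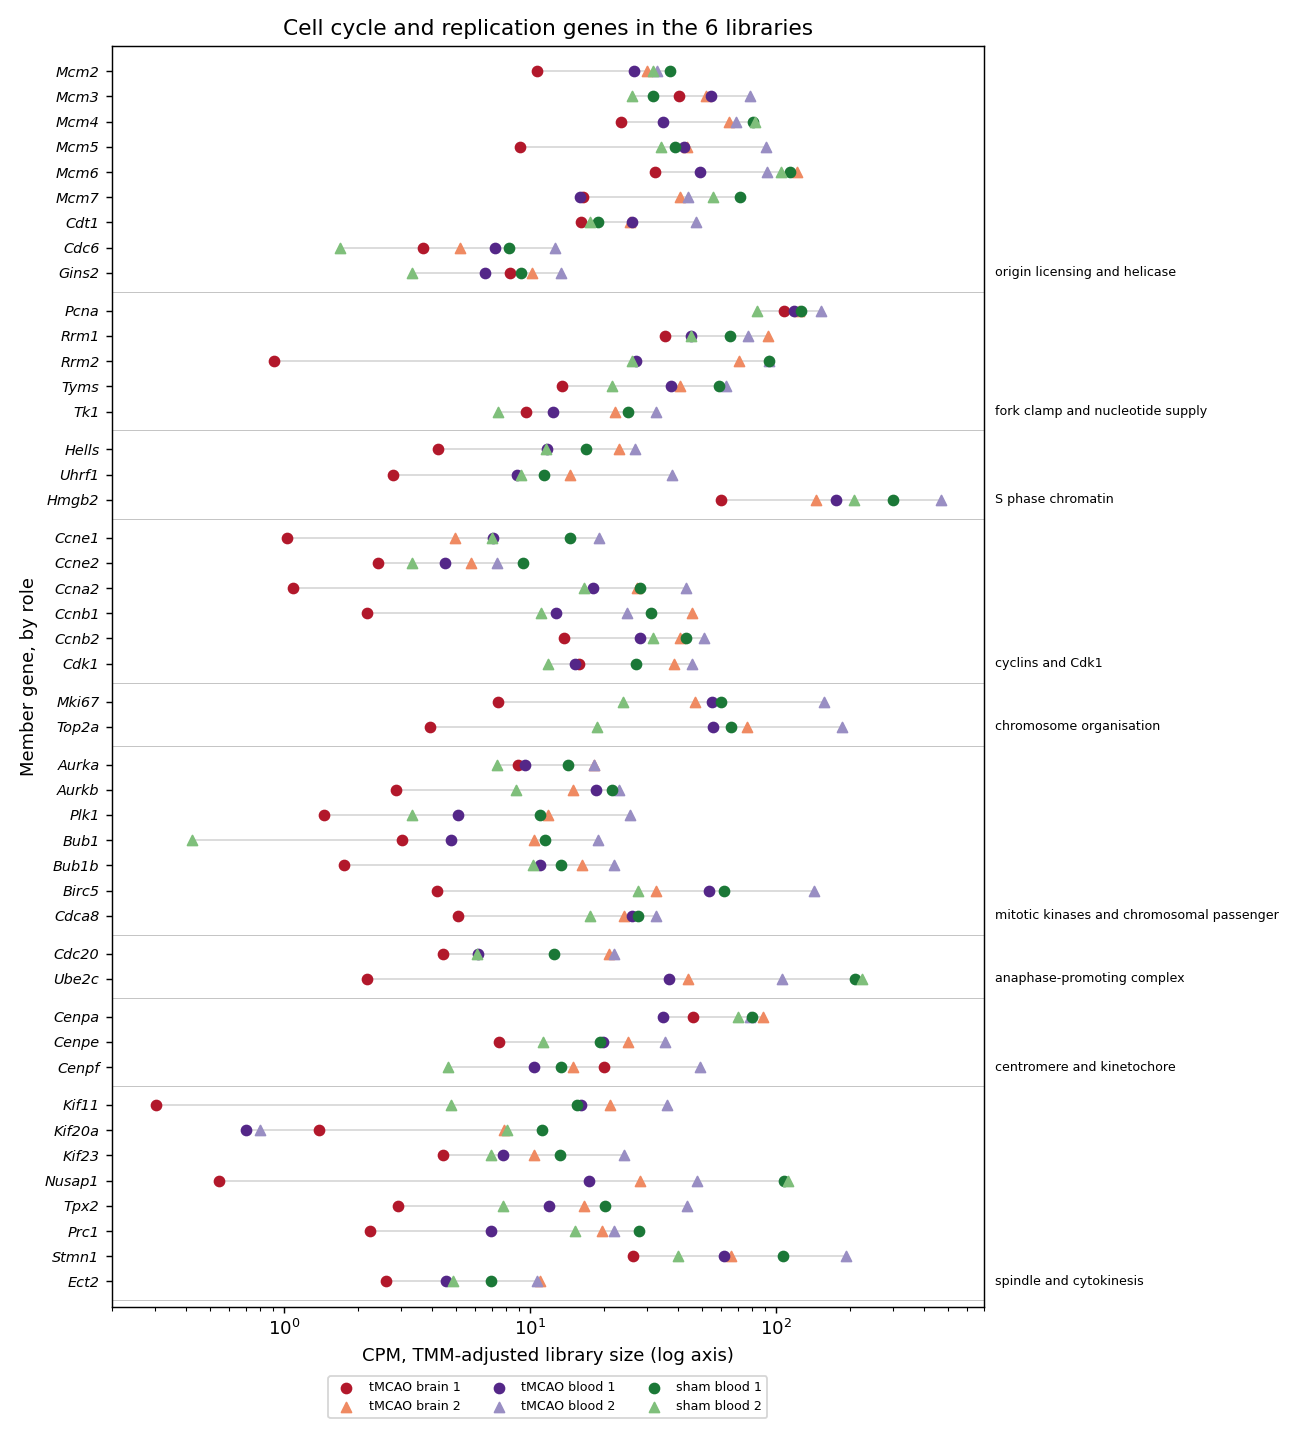
Level of each of the 45 genes in the 6 libraries (CPM on a log axis), grouped by role, with circles for library 1 and triangles for library 2 of each group. The tMCAO brain 1 circle is leftmost for 33 genes and the tMCAO blood 2 triangle rightmost for 31, with Kif20a, Ube2c and Nusap1 arranged differently.

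The origin licensing genes did not share 1 order across the groups. Cdc6 and Cdt1 load the Mcm2 to Mcm7 helicase onto origins, and Gins2 is part of the complex that activates it. Mcm3 (chr1:20802968-20820312, minus strand, as annotated by GENCODE M21 on GRCm38) stood at 40.4 and 52.0 CPM in brain, 54.6 and 78.4 CPM in blood after tMCAO and 31.7 and 26.0 CPM after sham operation. Both libraries of tMCAO blood lay above both of brain, which lay above both of sham blood. The log2 difference of tMCAO blood from sham blood was 1.20 ± 0.31 (SE, 2.31-fold), with an adjusted p of 0.0630 in the quasi-likelihood test of edgeR, so it did not pass the threshold of 0.05. Mcm5 stood at 9.07 and 43.4 CPM in brain, 42.5 and 90.9 CPM in blood after tMCAO and 39.0 and 34.2 CPM after sham operation. Cdt1 stood at 16.1 and 25.6, 25.9 and 47.5, and 18.9 and 17.6 CPM in the same order. For Mcm5 and Cdt1, as for Mcm3, both tMCAO blood libraries were above both sham libraries.

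Mcm4, Mcm6 and Mcm7, subunits of the same helicase, were ordered the other way between the blood groups. Mcm4 stood at 23.5 and 64.5 CPM in brain, 34.7 and 68.7 CPM in blood after tMCAO and 81.1 and 82.2 CPM after sham operation. Mcm7, which shares its position with parts of Ap4m1 and Cops6, stood at 16.5 and 40.8, 16.0 and 43.8, and 71.7 and 55.3 CPM. Both sham libraries of Mcm4 and Mcm7 lay above all 4 tMCAO libraries. Mcm6 stood at 32.2 and 123 CPM in brain, 49.3 and 92.1 CPM in blood after tMCAO and 114 and 105 CPM after sham operation, so sham lay above tMCAO blood only. Mcm2 stood at 10.6 and 29.9, 26.4 and 32.8, and 37.2 and 31.8 CPM, so its blood groups overlapped and only brain lay below sham blood. The 6 subunits act as a complex with 1 copy of each, and none passed the test in any comparison. The lower licensing genes were Cdc6, at 1.69 to 12.7 CPM, and Gins2, at 3.31 to 13.4 CPM over the 6 libraries, both lowest in sham blood 2 and highest in tMCAO blood 2.

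Pcna (chr2:132249162-132253314, minus strand), the sliding clamp of the replication fork, varied least of the 45 genes. It stood at 108 and 124 CPM in brain, 118 and 153 CPM in blood after tMCAO and 127 and 84.0 CPM after sham operation, so the groups overlapped. Rrm2 (chr12:24708241-24714146, plus strand), the ribonucleotide reductase subunit that is made in S phase, stood at 0.907 and 70.7 CPM in brain, 27.1 and 93.9 CPM in blood after tMCAO and 93.6 and 26.0 CPM after sham operation. In tMCAO brain 1 this was 15 counts, and the brain libraries differed 77.9-fold. The log2 difference of brain from tMCAO blood for Rrm2 was -0.75 ± 1.56 (SE), with an edgeR adjusted p of 0.781, and it turned positive without tMCAO brain 1 (0.22) or without tMCAO blood 2 (0.39). Its partner Rrm1, which is less tied to S phase, ranged from 35.5 to 93.4 CPM. Tyms, which makes thymidylate, ranged from 13.5 to 62.6 CPM, and Tk1, the salvage thymidine kinase, from 7.39 to 32.4 CPM. In all 5 genes of clamp and nucleotide supply the groups overlapped in every comparison.

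Hmgb2 (chr8:57511907-57515999, plus strand), a chromatin protein that bends DNA and was grouped with G2/M, was the most abundant of the 45 per length, at a mean of 75.3 CPM per kb of exon. It stood at 59.9 and 146 CPM in brain, 175 and 469 CPM in blood after tMCAO and 299 and 208 CPM after sham operation. Both brain libraries lay below all 4 blood libraries. The log2 difference of brain from tMCAO blood was -1.65 ± 0.62 (SE, 3.13-fold lower), with an edgeR adjusted p of 0.152, and was -2.42 without tMCAO brain 2 and -0.78 without tMCAO blood 2. Uhrf1, which reads half-methylated DNA behind the fork, ranged from 2.78 to 37.8 CPM, and Hells, a chromatin remodeller, from 4.23 to 26.7 CPM. Both were lowest in tMCAO brain 1 and highest in tMCAO blood 2.

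Among the cyclins, Ccne1, which drives entry into S phase, stood at 1.03 and 4.94 CPM in brain, 7.11 and 19.0 CPM in blood after tMCAO and 14.6 and 7.04 CPM after sham operation. Both brain libraries lay below all 4 blood libraries, with a log2 difference from tMCAO blood of -2.12 ± 0.89 (SE) and an edgeR adjusted p of 0.185. It was -3.65 without tMCAO brain 2 and -1.25 without tMCAO blood 2. Ccna2, the cyclin of S phase and G2, stood at 1.09 and 27.3, 18.1 and 43.3, and 28.1 and 16.5 CPM. Ccnb1, the mitotic cyclin, stood at 2.18 and 45.6, 12.8 and 24.7, and 30.9 and 11.1 CPM. For both cyclins tMCAO brain 1 was the lowest library, and the brain libraries lay 25.1-fold and 20.9-fold apart. Cdk1 (chr10:69335146-69352938, minus strand), the kinase they bind, stood at 15.8 and 38.6 CPM in brain, 15.2 and 45.5 CPM in blood after tMCAO and 27.0 and 11.8 CPM after sham operation. Its brain and tMCAO blood libraries covered the same range. Ccnb2 ranged from 13.8 to 50.9 CPM and Ccne2 from 2.42 to 9.37 CPM, with overlap in every comparison.

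Mki67 (chr7:135689784-135716361, minus strand) encodes Ki-67, which coats mitotic chromosomes and is the usual stain for cycling cells. It stood at 7.44 and 46.7 CPM in brain, 55.2 and 157 CPM in blood after tMCAO and 59.6 and 23.9 CPM after sham operation. Both brain libraries lay below both tMCAO blood libraries, while the sham libraries lay on either side of tMCAO brain 2. The log2 difference was -1.97 ± 0.95 (SE) for brain from tMCAO blood and 1.35 ± 0.94 for tMCAO blood from sham blood, with edgeR adjusted p of 0.236 and 0.372. Top2a (chr11:98992943-99024189, minus strand), the topoisomerase that untangles sister chromatids, stood at 3.93 and 76.0 CPM in brain, 55.7 and 185 CPM in blood after tMCAO and 65.9 and 18.7 CPM after sham operation. The brain levels of Top2a lay on either side of tMCAO blood 1. For Top2a the log2 difference of brain from tMCAO blood was -1.59 ± 1.30 (SE), with an edgeR adjusted p of 0.457. Without tMCAO brain 2 and without tMCAO blood 2 the brain differences from tMCAO blood were -3.83 and -1.04 for Mki67 and -4.93 and -0.49 for Top2a. The Mki67 difference of tMCAO blood from sham blood was 0.40 without tMCAO blood 2 and 2.14 without sham blood 1.

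Of the mitotic kinases and the chromosomal passenger complex, Birc5 stood furthest below blood in the brain libraries. Birc5 (chr11:117849251-117855743, plus strand), or survivin, guides that complex to centromeres. It stood at 4.17 and 32.6 CPM in brain, 53.4 and 143 CPM in blood after tMCAO and 61.7 and 27.4 CPM after sham operation. Brain differed from tMCAO blood by -2.41 ± 0.999 on the log2 scale (SE, 5.31-fold lower), the most negative of the 45 genes in that comparison, with an edgeR adjusted p of 0.180. It was -4.55 without tMCAO brain 2 and -1.54 without tMCAO blood 2. Its partners Aurkb, at 2.84 and 15.0 CPM in brain against 18.6 and 23.0 CPM in tMCAO blood, and Cdca8, at 5.08 and 24.2 against 25.9 and 32.6 CPM, were also lower in both brain libraries without passing the test. Aurka, which matures spindle poles, Plk1, the polo kinase, and Bub1 and Bub1b of the spindle checkpoint overlapped between the groups in every comparison. Bub1 stood at 0.422 CPM, or 6 counts, in sham blood 2 and at 11.6 CPM in sham blood 1.

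Both genes of the anaphase-promoting complex here act with it rather than in its core. Cdc20, its mitotic activator, ranged from 4.42 to 22.0 CPM and overlapped between groups. Ube2c (chr2:164769898-164778822, plus strand), the enzyme that hands it ubiquitin, stood at 2.18 and 44.0 CPM in brain, 36.9 and 106 CPM in blood after tMCAO and 210.5 and 225 CPM after sham operation. The sham libraries nearly coincided and lay above every tMCAO library. The log2 difference of brain from sham blood was -3.23 ± 1.25 (SE, 9.39-fold lower), with an edgeR adjusted p of 0.145. Ube2c overlaps the annotated position of Tnnc2, and how reads in shared positions were assigned is not given in the sources used here. Sham blood also held the highest red cell share, 15.1% and 16.4% of counts against at most 3.80% elsewhere, and its part in this result was not tested.

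Nusap1 (chr2:119618298-119651244, plus strand), which bundles spindle microtubules, was arranged like Ube2c. It stood at 0.544 and 27.9 CPM in brain, 17.3 and 47.7 CPM in blood after tMCAO and 108 and 113 CPM after sham operation. The level in tMCAO brain 1 was 9 counts. Brain differed from sham blood by -2.94 ± 1.41 on the log2 scale (SE, 7.68-fold lower), with an edgeR adjusted p of 0.222. Without tMCAO brain 2 the differences of Ube2c and Nusap1 from sham blood were -6.64 and -7.64 on the log2 scale, with edgeR adjusted p of 0.0231 and 0.0213. That fit leaves brain with 1 library, the one with Foxp3 near 0, and takes the spread from the blood groups. Without tMCAO brain 1 the differences were -2.32 and -1.99, and neither gene passed in the other 5 fits that each left out 1 library (adjusted p of 0.133 to 0.459). Nusap1 overlaps Oip5, another gene with a role at centromeres.

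Kif20a (chr18:34624613-34633277, plus strand), the kinesin that carries the passenger complex to the midzone in late mitosis, had the levels least like the rest. It stood at 1.39 and 7.84 CPM in brain, 0.700 and 0.797 CPM in blood after tMCAO and 11.2 and 8.09 CPM after sham operation. The tMCAO blood libraries, at 13 and 16 counts, were the lowest of all for this gene alone among the 45, although tMCAO blood 2 was the highest library for 31 others. The log2 difference of tMCAO blood from sham blood was -3.67 ± 0.92 (SE, 12.8-fold lower), with an edgeR adjusted p of 0.0612. That of brain from tMCAO blood was 2.62 ± 0.89 (SE, 6.15-fold higher), with an adjusted p of 0.121, and was 0.89 without tMCAO brain 2. The lower level in tMCAO blood than in sham blood passed in 7 of 14 alternative settings, among them the fits without tMCAO brain 1 (adjusted p = 0.0400) and without tMCAO brain 2 (0.0395), both with edgeR. Kif20a overlaps Cdc23, and it was the least abundant of the 45 per length, at a mean of 1.15 CPM per kb of exon.

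Of the other 6 spindle and cytokinesis genes, all were lowest in tMCAO brain 1, and all but Prc1, highest in sham blood 1, and Ect2, highest in tMCAO brain 2, were highest in tMCAO blood 2. Kif11, the motor that separates spindle poles, stood at 0.302 CPM (5 counts) and 21.2 CPM in brain, 16.1 and 36.0 CPM in blood after tMCAO and 15.5 and 4.78 CPM after sham operation. Both tMCAO blood libraries of Kif11 lay above both sham libraries, and the brain libraries lay 69.95-fold apart. Stmn1, which destabilises microtubules, stood at 26.3 and 65.9, 61.7 and 193, and 107 and 40.0 CPM, with overlap in every comparison. Kif23 and Ect2, which act in cytokinesis, Prc1, which cross-links the midzone, and Tpx2, which activates Aurora A, each overlapped too. At the centromere, Cenpa, the centromeric histone, ranged from 34.9 to 88.8 CPM, and Cenpe, a kinetochore motor, from 7.50 to 35.5 CPM. Cenpf, a kinetochore protein, stood at 20.1 and 15.0 CPM in brain, 10.4 and 49.2 CPM in blood after tMCAO and 13.4 and 4.64 CPM after sham operation. It was the only gene of the 45 that was lower in tMCAO brain 2 than in tMCAO brain 1, and both brain libraries lay above both sham libraries.

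Against this spread, the test of brain against blood within operated mice called none of the 45 genes. With edgeR, 0 were higher and 0 lower in tMCAO brain than in tMCAO blood at an adjusted p under 0.05, where 3.53% of all 16657 genes tested were higher and 1.37% lower. At an unadjusted p under 0.05, 1 of the 45 was higher and 1 lower, against 2792 and 1879 of the 16657 genes tested. The lowest edgeR adjusted p among the 45 was 0.121. The fitted difference was negative for 40 genes and positive for 5, with a median log2 difference of -0.76 against 0.06 over all genes tested. The medians were -0.53 for S phase and -0.996 for G2/M genes. Both brain libraries lay below both tMCAO blood libraries for 9 genes (20.0%), against 25.9% of all genes tested. Those were Mcm3, Cdt1, Cdc6, Hmgb2, Ccne1, Mki67, Aurkb, Birc5 and Cdca8. Both lay above for Kif20a alone (2.22%), against 31.4% of all genes. The median was -0.18 without tMCAO brain 1, -1.89 without tMCAO brain 2 and -0.08 without tMCAO blood 2, so its size moved with single libraries. Without library 1 of both tMCAO groups, in which Foxp3 was near 0, edgeR called 1 gene higher and 7 lower, where 11.9% and 8% of all genes were called, but the spread then rests on the sham libraries alone.

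The comparison of tMCAO blood with sham blood asks what stroke changes in circulating cells, and it also called 0 of the 45 genes higher and 0 lower with edgeR, where 4.33% of all genes were higher and 3.15% lower. At an unadjusted p under 0.05, 2 of the 45 were higher and 1 lower, against 2740 and 2198 of the 16657 genes tested. The lowest edgeR adjusted p among the 45 was 0.0612. The difference was positive for 34 genes and negative for 11, with a median of 0.46 against 0.11 over all genes tested. The median was 0.34 for S phase and 0.47 for G2/M genes. Both tMCAO blood libraries lay above both sham libraries for Mcm3, Mcm5, Cdt1, Cenpe and Kif11 (11.1%, against 33.6% of all genes). They lay below for Mcm4, Mcm6, Mcm7, Ube2c, Kif20a and Nusap1 (13.3%, against 30.4%). Leaving out tMCAO blood 2 changed the sign of 20 of the 45 differences and gave a median of -0.30. Without sham blood 1 the median was 0.95, and without sham blood 2 it was 0.10. With library 1 of both tMCAO groups left out, edgeR called 14 genes higher and 3 lower, where 11.2% and 10% of all genes were called, on the spread of the sham libraries alone.

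Brain against sham blood, which differ in both tissue and operation, gave 0 higher and 0 lower genes with edgeR, where 8.01% of all genes were higher and 2.62% lower. At an unadjusted p under 0.05, 0 were higher and 1 lower, and the lowest adjusted p was 0.145. The difference was negative for 31 genes and positive for 14, with a median of -0.45 against 0.09 over all genes. S phase genes had a median of -0.36 and G2/M genes of -0.45. Both brain libraries lay below both sham libraries for Mcm2, Mcm4, Mcm7, Hmgb2, Ccne1, Ube2c, Kif20a and Nusap1 (17.8%, against 29.7% of all genes). They lay above for Mcm3 and Cenpf (4.44%, against 34.9%). The median was 0.23 without tMCAO brain 1, -1.77 without tMCAO brain 2 and 0.09 without sham blood 1. When library 1 of both tMCAO groups was left out, it was 0.22, and edgeR called 1 gene higher and 2 lower, where 17.7% and 9.68% of all genes were called. The 3 comparisons share libraries in pairs, so their values are not independent of each other.

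**Figure D4:**
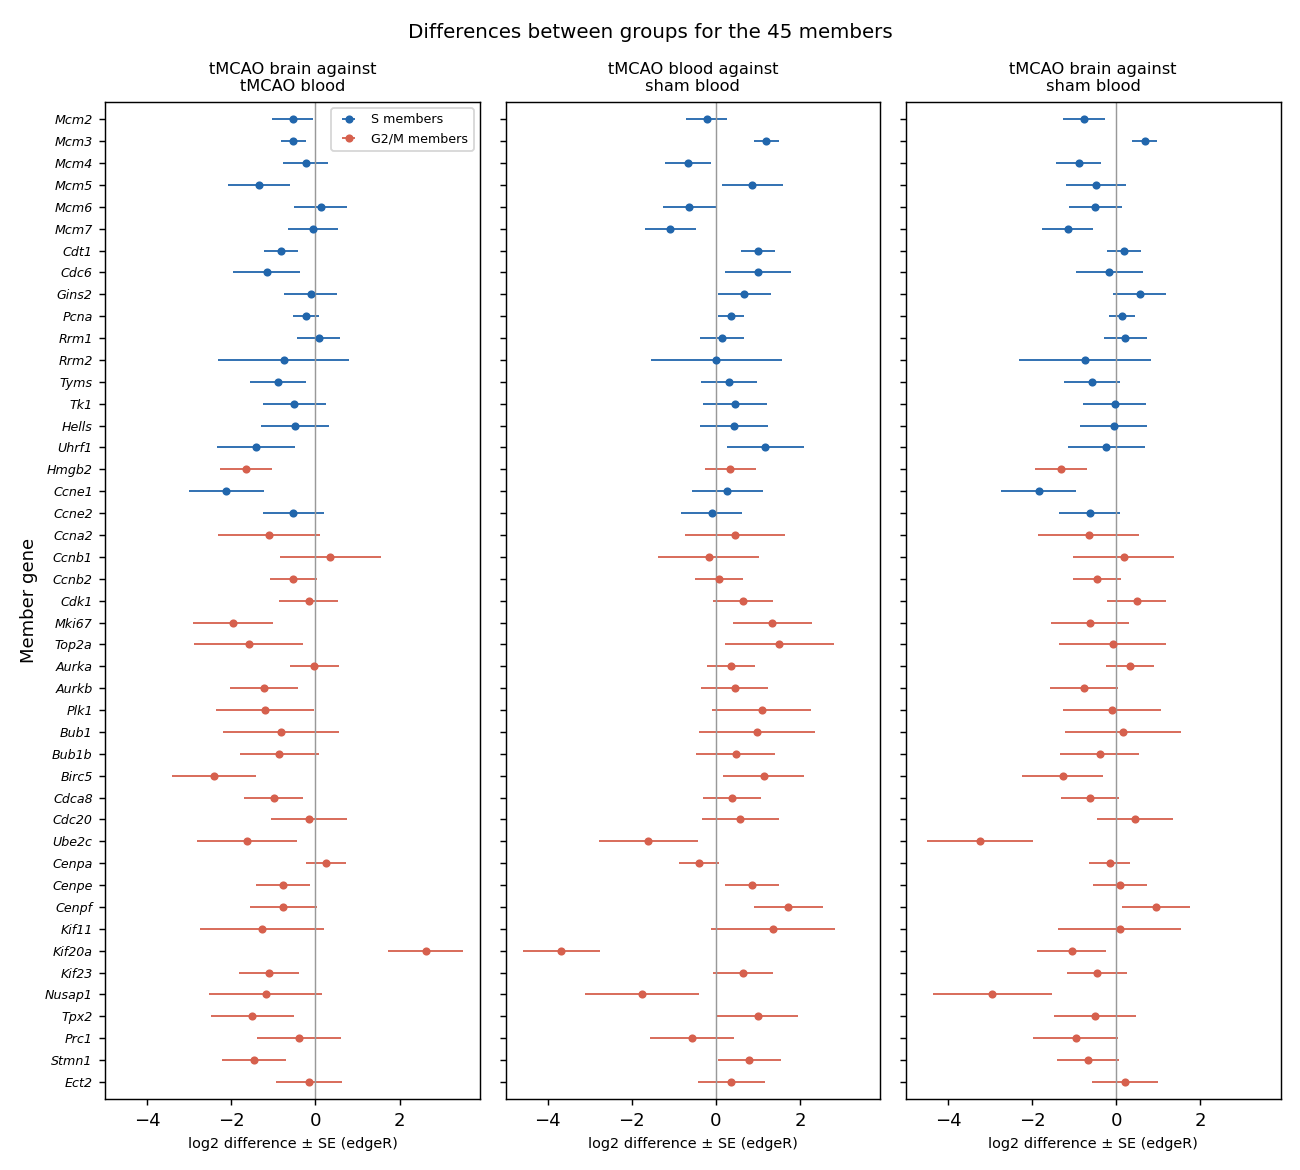
Log2 difference ± SE (edgeR) of each of the 45 genes in the 3 comparisons, with S phase genes in blue and G2/M genes in red. Most points lie left of 0 for brain against tMCAO blood (40 of 45) and right of 0 for tMCAO blood against sham blood (34 of 45), and Kif20a lies furthest out in the direction opposite to most genes in both.

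Genes that surround this programme were read from 6 further lists of 111 genes in all, and their counts stand against the same shares of all genes as above: 3.53% higher and 1.37% lower in brain than in tMCAO blood. The shares were 4.33% and 3.15% between the blood groups. They were 8.01% and 2.62% between brain and sham blood. Of 32 other replication genes, 0 rose and 0 fell in each of the 3 comparisons with edgeR, and their median log2 differences were -0.40, 0.33 and -0.24 in the order given above. Of 43 other mitosis genes, 0 changed between brain and tMCAO blood, 1 rose and 1 fell between sham and tMCAO blood, and 1 rose and 1 fell between sham blood and brain, with medians of -0.91, 0.69 and -0.20. The 2 that moved in blood were Espl1, or separase, which cuts cohesin at anaphase, and Pttg1, or securin, which holds it back. Espl1 stood at 7.80 and 7.88 CPM in brain, 31.5 and 20.5 CPM in blood after tMCAO and 0.706 and 0.0704 CPM after sham operation, where it had 11 counts and 1 count. It rose by 6.02 ± 0.89 on the log2 scale in tMCAO blood and by 4.29 ± 0.84 in brain (edgeR adjusted p = 0.0313 for both). Pttg1 stood at 122 and 94.6, 74.8 and 105, and 238 and 229.9 CPM, and fell by 1.38 ± 0.30 in tMCAO blood against sham blood (adjusted p = 0.0489 with edgeR). In brain against sham blood, Cdc25b, the phosphatase that activates Cdk1, fell by 3.19 ± 0.72 (edgeR adjusted p = 0.0429), from 117 and 122 CPM to 7.08 and 19.2 CPM. Both calls of Espl1, and that of Cdc25b, were lost without either sham library, and the blood call of Espl1 also without tMCAO blood 1. In these comparisons those fits called none of the genes tested, so the losses are not particular to these genes. The brain call of Espl1 and that of Cdc25b were also lost without either brain library. Leaving out a sham library moved the log2 difference of Espl1 to between 5.19 and 8.37 in tMCAO blood and to between 3.45 and 6.55 in brain, and leaving out a brain library moved that of Cdc25b to between -4.08 and -2.66. The call of Pttg1 was lost without any 1 of the 6 libraries, including in fits that did call other genes.

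Among the genes that control entry into the cycle, Cdkn1a was called in 2 comparisons. Cdkn1a, or p21, which inhibits cyclin-dependent kinases and is induced by p53 and by stress, stood at 564 and 353 CPM in brain, 196 and 39.1 CPM in blood after tMCAO and 7.19 and 9.01 CPM after sham operation. All 4 tMCAO libraries lay above both sham libraries. Cdkn1a rose by 5.82 ± 0.87 on the log2 scale in brain against sham blood (56.6-fold, edgeR adjusted p = 0.0171) and by 3.86 ± 0.80 in tMCAO blood against sham blood (14.5-fold, adjusted p = 0.0443). The brain call was lost without either sham library, but those fits called none of the genes tested in that comparison. Its log2 difference ran from 5.43 to 6.12 over the fits that each left out 1 library. The blood call was lost in limma-voom (adjusted p = 0.0791) and in edgeR without any 1 library other than tMCAO blood 2. Of those edgeR fits, the ones without tMCAO blood 1 or a sham library called none of the genes tested between the blood groups. The log2 difference in blood was 2.27 without tMCAO blood 1 and 4.60 without tMCAO blood 2. Of 7 CDK inhibitors 6 were tested, and the only other call was Cdkn2d, or p19, which fell by 1.92 ± 0.34 in brain against sham blood (edgeR adjusted p = 0.0249), from 123 and 130.3 CPM to 24.0 and 42.9 CPM.

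Of 6 D cyclins and G1 kinases, 0 changed in the comparisons that involve tMCAO blood, and 1 rose and 1 fell in brain against sham blood. Ccnd1, a D cyclin that resting lymphocytes scarcely express, stood at 15.5 and 4.45 CPM in brain, 13.2 and 5.98 CPM in blood after tMCAO and 0.834 and 0.493 CPM after sham operation. It rose by 3.89 ± 0.86 in brain (edgeR adjusted p = 0.0409). Ccnd3, the main D cyclin of lymphocytes, stood at 42.8 and 76.3, 81.3 and 100.3, and 164 and 220.2 CPM, and fell by 1.69 ± 0.37 in brain (edgeR adjusted p = 0.0410). Of 13 E2F, DREAM and Rb regulators 12 were tested, and the only call was E2f2, an activator that fell by 3.86 ± 0.66 in brain against sham blood (edgeR adjusted p = 0.0232), from 53.7 and 49.4 CPM to 2.66 and 4.37 CPM. The calls of Cdkn2d, Ccnd1, Ccnd3 and E2f2 were each lost without tMCAO brain 1 or without either sham library, and that of E2f2 also without tMCAO brain 2. The fits without a sham library called none of the genes tested in brain against sham blood, so that loss is not particular to these genes. The call of Ccnd1 was also lost in limma-voom (adjusted p = 0.119), and its log2 difference ran from 2.72 without tMCAO brain 1 to 4.53 without tMCAO brain 2. The macrophage share moved with these genes, being highest in brain and lowest in sham blood, as did the T cell share in the opposite direction, and their part in the changes was not tested.

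Of 10 quiescence and antiproliferative genes, 1 rose and 1 fell in brain against tMCAO blood, 2 rose in tMCAO blood against sham blood, and 3 rose in brain against sham blood. The differences were positive for 5, 3 and 5 of the 10 in these comparisons, with median log2 differences of 0.15, -0.43 and -0.01, so the list did not move one way. Btg2, which slows entry into S phase and promotes mRNA decay, stood at 1811 and 1122 CPM in brain, 114 and 107 CPM in blood after tMCAO and 269 and 265 CPM after sham operation. The rise in brain over tMCAO blood was 3.73 ± 0.39 on the log2 scale (edgeR adjusted p = 0.0167), and Btg2 also rose over sham blood (0.0169). Klf2, which keeps T cells resting and in circulation, stood at 37.9 and 67.7, 519 and 409.6, and 175 and 116 CPM, and fell by 3.13 ± 0.43 in brain relative to tMCAO blood (edgeR adjusted p = 0.0248). Klf4, another factor of resting T cells that myeloid cells also express, stood at 61.8 and 59.6 CPM in brain, 90.8 and 76.4 CPM in blood after tMCAO and 15.5 and 13.5 CPM after sham operation. Tob2, a relative of Btg2, stood at 51.2 and 88.3, 52.1 and 57.8, and 15.0 and 13.2 CPM. Klf4 rose by 2.53 ± 0.26 in tMCAO blood and by 2.07 ± 0.25 in brain (edgeR adjusted p = 0.0313 and 0.0123). Tob2 rose by 1.96 and 2.31 in the same order (0.0351 and 0.0164). For both genes all 4 tMCAO libraries lay above both sham libraries. Each of these 7 calls was lost without sham blood 1 and without sham blood 2. Those fits called none of the genes tested in the comparisons with sham blood and few in brain against tMCAO blood, so the losses are not particular to these genes. In the comparisons with tMCAO blood, that of Klf2 was also lost without any other library, and those of Btg2 and Tob2 without tMCAO blood 2. Those of Klf4 and Tob2 were lost without tMCAO blood 1 as well, in a fit that called none of the genes tested between the blood groups. In a fit of only tMCAO brain and tMCAO blood, the calls of Btg2 and Klf2 were lost too (edgeR adjusted p = 0.0625 and 0.0719). That fit called 0.137% of all genes higher and 0.025% lower, so these losses are not particular to the 2 genes either.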

How the data were processed

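Bulk RNA sequencing was done on 6 libraries of sorted mouse Tregs, 2 in each of 3 groups taken from the sample titles. Per the labels' protocols, cDNA was made with an ultralow input kit, tagmented, amplified by PCR and read as paired 75 bp ends. The values are whole-number counts per gene as deposited, made by the authors with STAR (version not given in the sources used here), HTSeq 0.11.2 and GRCm38, per the submitters' processing notes. Which annotation, strand option and rule for multiply placed reads they chose is not given in the sources used here, so 12 of the 45 genes that overlap another protein-coding gene in GENCODE M21 are uncertain: Mcm7, Cdt1, Gins2, Tk1, Ccne2, Ccna2, Cdca8, Cdc20, Ube2c, Kif20a, Nusap1 and Prc1. Of the genes named from other lists, Ccnd1, Ccnd3, Cdc25b and Foxp3 overlap another too. Column names were read with S as sham and M as tMCAO, and 0 columns were left out.

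filterByExpr (minimum count 10) kept 16657 genes, all 45 among them. They were scaled by TMM and tested in one quasi-likelihood fit of all 6 libraries (edgeR 4.0.16 in R 4.3.3, 3 residual degrees of freedom, no covariates). P-values were adjusted by Benjamini-Hochberg over all genes tested in a comparison, with a threshold of 0.05. Dividing a log2 difference by the square root of its F statistic gave its SE. CPM use the TMM-adjusted library size, and shares use raw totals with 95% Wilson intervals. Chi-square values per degree of freedom between the libraries of a group were 139 for tMCAO brain, 153 for tMCAO blood and 18.7 for sham blood, which shows only that no library repeats another. Each counted as a sample because the labels list it as one.

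The 45 genes, the other lists and the motifs were chosen with earlier results of these data known. The rule for named genes was any of the 45 past the threshold, 12 fixed ones (Mki67, Top2a, Pcna, Mcm5, Rrm2, Cdk1, Ccnb1, Ccna2, Ccne1, Birc5, Stmn1 and Hmgb2), and up to 3 called genes of each other list by smallest adjusted p, read within each comparison. Other genes of the 45 were singled out after their values were seen, Kif20a, Ube2c, Nusap1, Mcm3 and Cenpf among them. For lists with no call the 2 most abundant genes are not described. As alternatives, edgeR was run with DESeq2 size factors, without a filter, with a stricter one (5 CPM in 2 libraries), on only the groups compared, with a replicate block and without each library. DESeq2 1.42.0 (Wald test) and limma-voom (limma 3.58.1) were run too. Leaving out library 1 of both tMCAO groups was added after the data were seen. Promoter windows are RefSeq's on GRCm38.p6.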

Additional observations from a re-analysis of the deposited data

How the results depend on the processing

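The count of 0 among the 45 genes, in both directions of all 3 comparisons, was the same with DESeq2 size factors within edgeR and with limma-voom. With the size factors, 3.47% of all genes were higher and 1.38% lower in brain than in tMCAO blood. Between tMCAO blood and sham blood these shares were 3.88% and 3.03%. With limma-voom the shares were 5.99% and 2.7%, and 3.15% and 3.73%, in the same order. With the size factors, 7.74% of all genes were higher in brain than in sham blood. The other shares of brain against sham blood in these 2 settings are not given here. Without a filter on low counts, where 31242 genes were tested, edgeR called 1 gene higher (Kif20a) and 10 lower in brain than in tMCAO blood, 5 higher and 3 lower in blood after tMCAO than after sham operation, and 6 lower in brain than in sham blood, where 7.7%, 3.81%, 6.69%, 4.87% and 3.99% of all genes were called. The Wald test of DESeq2 called 1 higher (Kif20a) and 2 lower (Birc5 and Hmgb2), 1 higher (Mcm3) and 1 lower (Kif20a), and 1 lower (Ube2c), in the same order, where 12.8%, 8.34%, 12.9%, 10.8% and 8.43% of all genes were called. The stricter filter called Mcm3 higher and Kif20a lower in blood after tMCAO than after sham operation (1 each, against 10.1% and 6.84% of all genes), and a fit of only those 2 groups called 1 lower (Kif20a, against 5.02%). Leaving out each library in turn gave 0 to 1 gene lower after tMCAO than after sham operation in blood. The 1 was Kif20a, without tMCAO brain 1 and without tMCAO brain 2, where 2.22% and 2.48% of all genes were called lower. Both blood groups keep 2 libraries in those fits. In brain against sham blood, the fit without tMCAO brain 2 leaves brain with 1 library, so its calls are not counted here. In every other case leaving out a library gave 0. But some of these fits called 0 of all genes tested (18844 to 19351), so their 0 says nothing of the 45. Those were tMCAO blood against sham blood without tMCAO blood 1 or either sham library, and brain against sham blood without either sham library. Leaving out library 1 of both tMCAO groups, which leaves the spread to the sham libraries alone, called 1 higher and 7 lower in brain than in tMCAO blood, 14 higher and 3 lower in blood after tMCAO than after sham operation, and 1 higher and 2 lower in brain than in sham blood. In that setting 11.9% and 8% of all genes tested were called higher and lower for brain against tMCAO blood. The cause of these changes was not tested. Without a library in turn, the log2 difference of Rrm2 between brain and tMCAO blood ran from -6.04 to 0.39 and was reversed without tMCAO brain 1 (0.22) and without tMCAO blood 2 (0.39).

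A replicate block in edgeR called 0 of the 45 genes in each direction of all 3 comparisons (lowest adjusted p 0.129, 0.0610 and 0.0540). Of all genes, it called 3.46% higher and 1.36% lower in brain than in tMCAO blood. Between tMCAO blood and sham blood these shares were 4.61% and 3.3%, and those of brain against sham blood are not given here. The block ended the call of Pttg1 (edgeR adjusted p = 0.0597). Same-numbered libraries deviated together between brain and tMCAO blood (correlation 0.304) but not between brain and sham blood (-0.0285) or tMCAO blood and sham blood (-0.0702). Sham-operated mice are not the tMCAO mice, so the sham correlations do not bear on a pairing of brain with tMCAO blood. The block gave the sham libraries the same effect, though most of the 45 genes were lower in library 2 there. A pairing of brain with tMCAO blood alone was not fitted, and the main test ignores it. With 2 libraries a group, differences of the size seen for most of the 45 genes were within the spread.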
